A study of Mus musculus with 30 samples.

Results

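Tumors from HET mice under anti-PD1 were set against tumors from WT mice under anti-PD1, across all genes. HET mice carry 1 copy of ARE-del, an Ifng allele whose 3′ untranslated region (UTR) is missing an AU-rich element, and WT mice are wild type. The members are the libraries labelled with this treatment and either genotype, 3 HET anti-PD1 and 4 WT anti-PD1, out of 30 libraries in the series. The genotype field of the 4 WT libraries says "ARE-del +/+", which is taken to mean 2 wild type copies, after their titles. The tumor is B16F10, a transplanted melanoma line of C57BL/6 origin, grown under the skin of female C57BL/6 mice. The injected line has its own genome, so ARE-del can be present in host cells within the tumor but not in the melanoma cells. From day 7, mice of both groups received 0.25 mg of anti-PD1, 2 times a week. The 9 libraries of the same genotypes under control IgG (4 HET IgG, 5 WT IgG) are used beside them. Ages are not given in the sources used here, and whether each replicate is its own animal is not stated, so a p-value here reflects the spread among these libraries, which may be technical.

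Interferon-gamma (IFN-γ), the product of Ifng, is a cytokine made mainly by T cells and natural killer (NK) cells. It binds a receptor of Ifngr1 and Ifngr2 chains and acts through the kinases Jak1 and Jak2, and its response runs in part through DNA sites of the GAS type (gamma-activated sequence). Its targets include Irf1, the chemokines Cxcl9 and Cxcl10, guanylate-binding proteins, both classes of MHC molecules and Cd274, which encodes PD-L1, the ligand of PD-1. AU-rich elements shorten the life of an mRNA, and anti-PD1 blocks the PD-1 checkpoint receptor that restrains T cells. A tumor of this kind also holds fibroblasts, which deposit the extracellular matrix of collagens, proteoglycans and fibronectin, and vessels, macrophages and neutrophils.

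The AU-rich part of Ifng is shown because the genotype concerns it. Ifng lies on mm10 chr10:118441046-118445892, plus strand, and its 3′ UTR spans chr10:118445262-118445892 in the GENCODE annotation, 631 bases that hold the pentamer ATTTA 6 times. The window of 30 bases with the most pentamers holds 3 of them, in capitals, and lies at chr10:118445330-118445359 of the plus strand. The bounds of the deleted stretch are not given in the sources used here.
Ifng 3′ UTR window: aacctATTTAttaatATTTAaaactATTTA

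Promoters are shown for Irf1, a target of IFN-γ, and for the collagen VI genes Col6a1, Col6a2 and Col6a3, which stood lowest by p-value among the matrix genes described further on. Each sequence covers 300 bases listed as a promoter of the gene (RefSeq, GRCm38.p6), read along the gene's strand. Where a gene has 2 entries they are ordered by coordinate. For Irf1 and Col6a3 most of the bases lie before the start of the gene in GENCODE. For Col6a1 and Col6a2, which start at 76726168 and 76623630, most of the bases lie after it. Capitals mark matches on either strand to GGGCGG (the core of a GC box), TGACTCA (an AP-1 site) or TTCNNNGAA (a GAS site). Irf1 is at chr11:53769764-53770063 (plus, the first of its 2 entries), Col6a1 at chr10:76725995-76726294 (minus), Col6a2 at chr10:76623355-76623654 (minus, the first of its 2 entries) and Col6a3 at chr1:90843922-90844221 (minus).
Irf1: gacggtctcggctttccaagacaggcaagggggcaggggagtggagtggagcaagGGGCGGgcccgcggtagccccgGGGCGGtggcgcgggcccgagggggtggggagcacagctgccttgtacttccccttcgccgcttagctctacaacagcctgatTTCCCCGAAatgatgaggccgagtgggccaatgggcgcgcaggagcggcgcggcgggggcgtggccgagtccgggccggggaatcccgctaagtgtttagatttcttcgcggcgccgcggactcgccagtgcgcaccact
Col6a1: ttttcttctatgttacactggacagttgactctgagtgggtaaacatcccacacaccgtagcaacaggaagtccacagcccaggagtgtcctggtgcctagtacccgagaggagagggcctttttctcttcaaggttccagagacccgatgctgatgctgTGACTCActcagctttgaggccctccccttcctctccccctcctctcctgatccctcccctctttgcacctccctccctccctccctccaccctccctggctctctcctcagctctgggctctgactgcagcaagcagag
Col6a2: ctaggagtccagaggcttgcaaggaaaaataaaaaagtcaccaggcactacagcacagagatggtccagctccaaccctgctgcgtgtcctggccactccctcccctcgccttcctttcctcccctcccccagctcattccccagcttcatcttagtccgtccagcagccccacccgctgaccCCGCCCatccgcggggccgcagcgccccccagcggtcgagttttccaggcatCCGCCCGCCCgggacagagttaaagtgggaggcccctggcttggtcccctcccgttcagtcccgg
Col6a3: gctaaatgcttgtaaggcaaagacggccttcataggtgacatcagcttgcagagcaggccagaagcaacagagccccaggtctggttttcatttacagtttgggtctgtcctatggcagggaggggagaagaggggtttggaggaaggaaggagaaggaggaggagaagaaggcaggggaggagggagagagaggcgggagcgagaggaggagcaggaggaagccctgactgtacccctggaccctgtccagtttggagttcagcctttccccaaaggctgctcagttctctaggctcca
The Irf1 window held 1 GAS match and 2 GC boxes, and its other entry, at chr11:53770223-53770522, held 2 GC boxes and no GAS match. The Col6a1 window held 1 AP-1 match, the Col6a2 window held 3 GC boxes of which 2 overlap, and the Col6a3 window held no match. The other Col6a2 entry, at chr10:76623581-76623880, held 1 GC box. Col6a1 and Col6a2 are neighbours on chromosome 10. The RefSeq table held a promoter for 26 of the 36 IFN-γ response genes tested and for 15 of the 27 fibroblast and matrix genes tested. A GAS match was found in 12 of those 26 (46.2%), in 1 of the 15 (6.67%) and in 9.55% of all 27025 genes with a promoter. A GC box was found in 13 of the 26 (50%), in 7 of the 15 (46.7%) and in 38.2% of all, and an AP-1 match in 5 of the 26 (19.2%), in 1 of the 15 (6.67%) and in 5.95% of all. A match is a string of letters and not a shown site.

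The files hold 24.0 M to 26.8 M recovered reads for the 3 HET anti-PD1 libraries and 21.2 M to 28.0 M for the 4 WT anti-PD1 libraries. Melanocyte genes were abundant in all 7: Dct, an enzyme of melanin synthesis, had at least 9102 CPM (reads scaled to library size) in HET and at least 7411 CPM in WT. One library stood apart. On the first principal component of the 7, which holds 41.4% of the variance, WT replicate 1 was at -86.5 and the other 6 were between -0.42 and 33.7. Its score for 21 skeletal muscle genes (the mean log2 CPM of the list) was 3.75, against -1.28 to -0.85 in the other 3 WT libraries and -0.33 to 1.38 in HET. Its score for 22 keratinocyte genes was 1.17, against -2.53 to -2.36 in the other 3 WT libraries and -2.39 to -0.48 in HET. The second component (24.8%) set HET replicate 2 at -57.0 apart. Column headers give each library an L number that no label explains: the 3 HET libraries are L7, WT replicates 1 to 3 are L5 and WT replicate 4 is L6. No L number holds both groups, so within the comparison the genotype and the L number cannot be told apart. With the L number as a term in the fit, WT replicates 1 to 3 cancel out of the difference. Values from that fit set HET against WT replicate 4 alone, with a step from L6 to L7 taken through HET IgG. Fewer cells of a type and less RNA per cell cannot be told apart in these bulk libraries either.

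No gene passed the test. Of 15002 genes tested, 0 (0.0%) had an adjusted p under 0.05 in limma's moderated test with Benjamini-Hochberg adjustment, and the smallest adjusted p was 1. At an unadjusted p under 0.05, 181 genes (1.21%) were lower in HET and 140 (0.933%) were higher. Both directions together held 321 genes, fewer than the 750 expected at this threshold without any difference. In 318 genes (2.12%) every HET library was below every WT library, and in 438 (2.92%) every HET library was above every WT library. Of the 35 ways to divide 7 libraries into 3 and 4, 1 puts the HET libraries below and 1 above. At any p, 45.9% of genes were lower in HET, and the list counts below stand beside these shares. The median difference, HET minus WT, was 0.02 on the log2 scale, with a median standard error of 0.28. The 5th and 95th percentiles of the differences were -0.68 and 0.42. The spread between replicates was wider in WT, with a median SD of 0.20 log2 units in HET and 0.32 in WT. All differences and p-values of single genes below come from that fit, none of them called, and single genes are named by a rule that does not ask for a call.

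**Figure D1:**
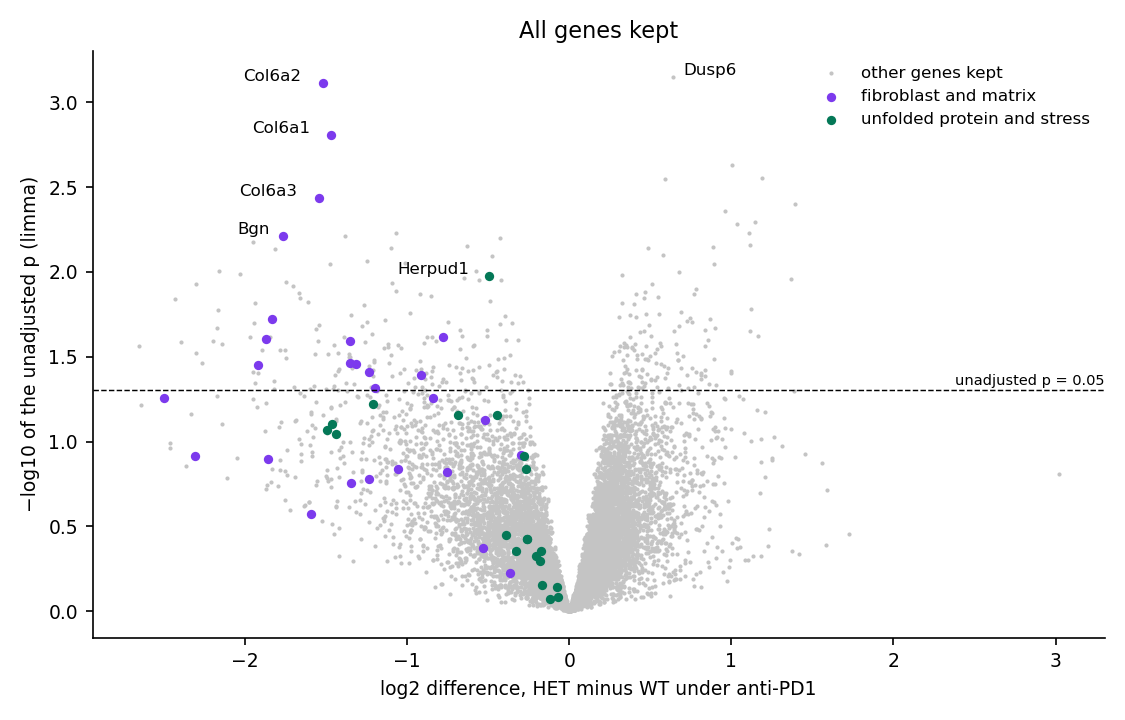
Each point is 1 of 15002 genes, with the log2 difference HET minus WT under anti-PD1 on the x axis and −log10 of limma's unadjusted p on the y axis. The 27 fibroblast and matrix genes (purple) and the 20 genes of the unfolded protein and stress response (green) all lie left of 0, with 14 and 1 of them above the dashed line at 0.05. Dusp6 is the topmost gene on the right.

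Ifng itself was at the limit of detection. It had 0 reads in all 3 HET libraries and 5, 4, 0 and 0 reads in WT replicates 1 to 4 (0.215 and 0.136 CPM in the first 2). A count of 0 over the 3 HET libraries together allows up to 0.0393 CPM, for counting error only. The difference was not detectable at this depth (two-sided exact permutation test of the log2 values, p = 0.57). With 3 libraries against 4 there are 35 divisions, so the smallest p this exact test can give is 0.057 and it cannot reach 0.05.

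No gene of the receptor or its signalling chain reached an unadjusted p of 0.05. Ifngr1 had 25.2, 25.8 and 22.5 CPM in HET, against 34.0, 25.4, 24.5 and 19.1 CPM in WT. Ifngr2 had 60.4, 62.5 and 72.0 CPM in HET, against 56.3, 64.4, 61.1 and 57.3 CPM in WT. The groups overlap in both genes, with log2 differences of -0.04 ± 0.17 for Ifngr1 and 0.12 ± 0.18 for Ifngr2 (limma standard error, n = 3 and 4). Of 8 signalling genes tested, 3 were lower and 5 higher in HET, with a median of 0.08 that turned to -0.03 without HET replicate 2. Ptpn11, a phosphatase of cytokine and growth factor signalling, had 189, 238 and 182 CPM in HET, against 181, 179.6, 152 and 179 CPM in WT, without overlap by a narrow margin (0.22 ± 0.18).

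Targets of IFN-γ spread widely among the WT libraries. Irf1, a transcription factor that carries the response on, had 34.7, 16.4 and 24.5 CPM in HET, against 90.5, 37.8, 25.7 and 17.7 CPM in WT. Gbp2, a guanylate-binding protein, had 18.0, 10.4 and 10.01 CPM in HET, against 173, 27.7, 8.58 and 4.37 CPM in WT. Cxcl9, which draws T cells, had 7.33, 1.02 and 3.12 CPM in HET, against 54.1, 12.7, 3.26 and 0.238 CPM in WT. In each of the 3, WT replicate 1 was the highest library and the HET values lay inside the range of the WT values, apart from Irf1 in HET replicate 2. The differences were -0.55 ± 0.44 for Irf1, -0.74 ± 0.84 for Gbp2 and -0.81 ± 1.17 for Cxcl9. They were -0.10, 0.28 and 0.31 without WT replicate 1, so those of Gbp2 and Cxcl9 turned.

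Over the IFN-γ response list, 31 of 36 genes tested were lower in HET, where 45.9% of all genes were lower, with a median of -0.33 beside 0.02 over all genes, and 0 reached an unadjusted p of 0.05. Its score was 3.09, 1.97 and 2.62 in HET, against 4.74, 3.49, 2.33 and 1.25 in WT, so the HET libraries lie within the range of the WT libraries. When WT replicate 1 was left out, 11 of the 36 were lower and the median was 0.26, and when WT replicate 4 was left out it was -0.92. The 3 members with the highest mean log2 CPM were Tapbp (which loads peptides on MHC class I), Irgm1 (an immunity-related GTPase) and Irf9 (a transcription factor of the type I response). Their differences were -0.29 ± 0.33, -0.02 ± 0.49 and 0.01 ± 0.25. With the muscle and keratinocyte scores as terms in the fit, the median was -0.54. Of 31 type I interferon response genes, 17 were lower in HET and 14 higher, with a median of -0.10 that turned to 0.05 without WT replicate 1.

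MHC class I genes, which present antigen to CD8 T cells, were lower in HET in 14 of 21, with a median of -0.12. Without WT replicate 1, 2 of the 21 were lower and the median was 0.17, and with the L number as a term it was 0.14. The class I heavy chain H2-K1 had 395, 342 and 399 CPM in HET, against 499, 417, 355 and 257 CPM in WT (0.03 ± 0.42). Its light chain B2m had 833, 1033 and 1003 CPM in HET, against 1012, 1071, 673 and 519 CPM in WT (0.28 ± 0.28). MHC class II genes, which serve CD4 T cells, were lower in HET in 9 of 10, with a median of -0.80. Cd74, the chain that guides class II molecules, had 16.6, 4.87 and 30.4 CPM in HET, against 123, 63.2, 10.7 and 3.90 CPM in WT (-0.82 ± 1.11). Ciita, the master regulator of class II, had 0.839, 0 and 0.482 CPM in HET, against 2.11, 2.38, 0.280 and 0.143 CPM in WT (-1.23 ± 0.93). In both, WT replicates 1 and 2 were the highest libraries and WT replicates 3 and 4 lay inside the range of HET or below it. The proteases Lgmn and Ctss, which trim class II cargo, differed by -0.13 ± 0.34 and -0.59 ± 0.73. The class II median was -0.07 without WT replicate 1, and with the L number as a term it turned to 0.75 and that of the IFN-γ response list to 0.56. How reads shared between near-identical MHC genes were assigned is not given in the sources used here, so values of single MHC and Gbp genes are uncertain.

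Of the 30 gene lists counted, that of fibroblast and matrix genes had the lowest median. All 27 genes tested were lower, with differences from -2.50 to -0.30 and a median of -1.34, beside 0.02 over all genes. In 14 of the 27 the unadjusted p was under 0.05, where 1.21% of all genes were this far lower, and 0 were called. The list was chosen with earlier results of these data known, and its members are not independent of each other, so the count is a description. Its score was 3.90, 2.81 and 3.69 in HET, against 5.82, 5.01, 4.45 and 3.81 in WT. HET replicate 1 was above WT replicate 4, and otherwise each HET library was below each WT library.

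Collagen VI forms beaded filaments around cells, and its 3 chains had the 3 smallest p-values within the list. Col6a2 had 49.4, 17.5 and 29.3 CPM in HET, against 104, 69.9, 139 and 50.3 CPM in WT. Col6a1 had 57.9, 16.7 and 30.2 CPM in HET, against 108, 73.7, 148 and 45.4 CPM in WT. Col6a3 had 101, 26.9 and 46.8 CPM in HET, against 187, 130, 245 and 78.3 CPM in WT. The groups do not overlap in Col6a2, while in Col6a1 and Col6a3 HET replicate 1 was above WT replicate 4. HET replicate 2 was the lowest library and WT replicate 3 the highest in all 3 chains. Col6a2 averaged 32.1 ± 16.1 CPM in HET and 91.0 ± 39.2 CPM in WT (SD, n = 3 and 4), a fitted fold of 0.348. The differences were -1.52 ± 0.40 for Col6a2 (unadjusted p = 0.00077), -1.47 ± 0.42 for Col6a1 (0.0016) and -1.55 ± 0.48 for Col6a3 (0.0037), from limma. Leaving out 1 library at a time, that of Col6a2 ran from -1.89 to -1.15.

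Fibrillar collagens followed the same order of groups with a wider spread in WT. Col1a1, a chain of collagen I, had 105, 21.5 and 59.3 CPM in HET, against 547, 243, 138 and 77.2 CPM in WT. Col1a2, its other chain, had 81.1, 19.4 and 52.4 CPM in HET, against 381, 202, 121 and 69.1 CPM in WT. Col3a1, of collagen III, had 84.1, 30.5 and 71.9 CPM in HET, against 475, 236, 171 and 88.7 CPM in WT. WT replicate 1 was the highest and WT replicate 4 the lowest WT library in these 3 genes, and only for Col3a1 do the groups not overlap. The differences were -1.92 ± 0.87, -1.87 ± 0.79 and -1.83 ± 0.73. Col5a1 and Col5a2, which encode collagen V, differed by -0.92 ± 0.43 and -1.35 ± 0.57.

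Col12a1, a collagen that lies on fibrils, had 12.8, 4.74 and 8.75 CPM in HET, against 39.3, 21.5, 15.6 and 14.2 CPM in WT, without overlap (-1.35 ± 0.61). Bgn, a small proteoglycan that binds collagen, had 54.3, 14.9 and 32.9 CPM in HET, against 186, 113, 129 and 39.3 CPM in WT (-1.76 ± 0.59). Postn, a matrix protein of activated fibroblasts, had 27.4, 15.3 and 30.2 CPM in HET, against 111, 83.5, 38.5 and 25.8 CPM in WT (-1.24 ± 0.57). In Bgn and Postn, WT replicate 4 lay among the HET libraries. Fbn1, the microfibril protein, differed by -1.20 ± 0.58, Thy1, a surface protein of fibroblasts and T cells, by -1.32 ± 0.59, and Pdgfrb, a growth factor receptor of fibroblasts and pericytes, by -0.78 ± 0.33. The members with the highest mean log2 CPM were Sparc, a collagen-binding glycoprotein (-0.52 ± 0.28), Fn1, which encodes fibronectin (-0.76 ± 0.51), and Fbln1, which encodes fibulin-1 (-0.30 ± 0.19), and none of the 3 reached an unadjusted p of 0.05.

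**Figure D2:**
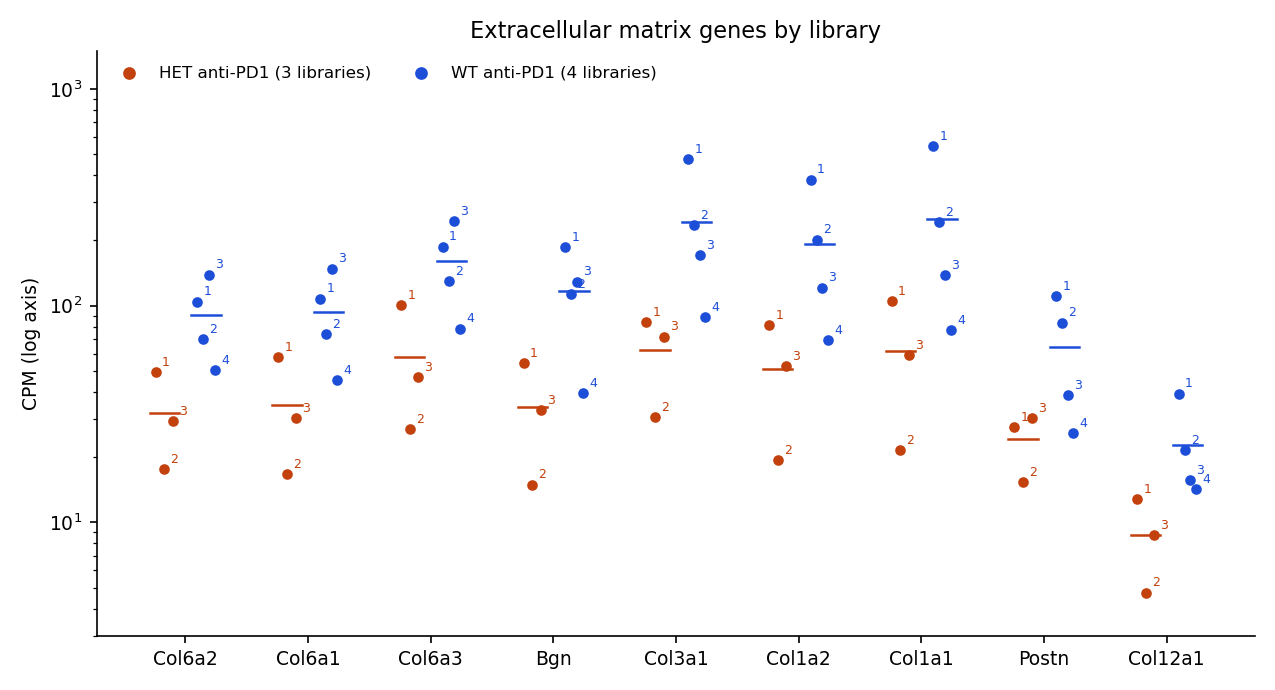
CPM on a log axis for 9 matrix genes, 1 numbered point a library (the number is the replicate) and a bar at the mean, HET left of WT. In Col6a2, Col3a1 and Col12a1 the 3 HET points lie under the 4 WT points, while in the other 6 genes WT replicate 4 falls among the HET points.

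The matrix values move with other measures. Without WT replicate 1, the library high in muscle and keratinocyte genes, 26 of the 27 were lower, the median was -0.93 and 5 had an unadjusted p under 0.05. Without HET replicate 2 that count was 3. With both tissue scores as terms in the fit the median was -1.49. With the L number as a term it was -0.15, 17 of 27 were lower and 0 reached an unadjusted p of 0.05, at a median standard error of 1.26 against 0.59. By its construction, WT replicates 1 to 3 cancel out of the difference in that fit, which sets HET against WT replicate 4 alone. Smooth muscle and pericyte genes were lower in HET in 11 of 11 (median -0.42) and endothelial genes in 20 of 23 (median -0.33), with 0 of either at an unadjusted p of 0.05. Without HET replicate 2 these medians were -0.17 and -0.14, and with the L number as a term -0.84 and 0.19.

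Under IgG the same 27 genes had a median difference of -0.09, beside -0.003 over all genes. Genotype and L number cannot be told apart there either, as WT IgG is all L5 and HET IgG is L6 to L8. Col6a2 averaged 36.2 ± 14.6 CPM in HET IgG and 32.3 ± 13.2 CPM in WT IgG (SD, n = 4 and 5), and Col1a1 88.9 ± 83.5 CPM in HET IgG and 137 ± 206 CPM in WT IgG. The WT anti-PD1 mean of Col6a2, 91.0 CPM, was the highest of these 4 groups. The genotype difference under anti-PD1 minus that under IgG was -1.69 ± 0.53 for Col6a2, -1.91 ± 0.55 for Col6a1, -1.68 ± 0.65 for Col6a3 and -1.90 ± 0.79 for Bgn. These 4 are the members of the 27 with an unadjusted p under 0.05 for it, and the median over the 27 was -1.25. Of all genes, 1.03% were under 0.05 for it in either direction.

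**Figure D3:**
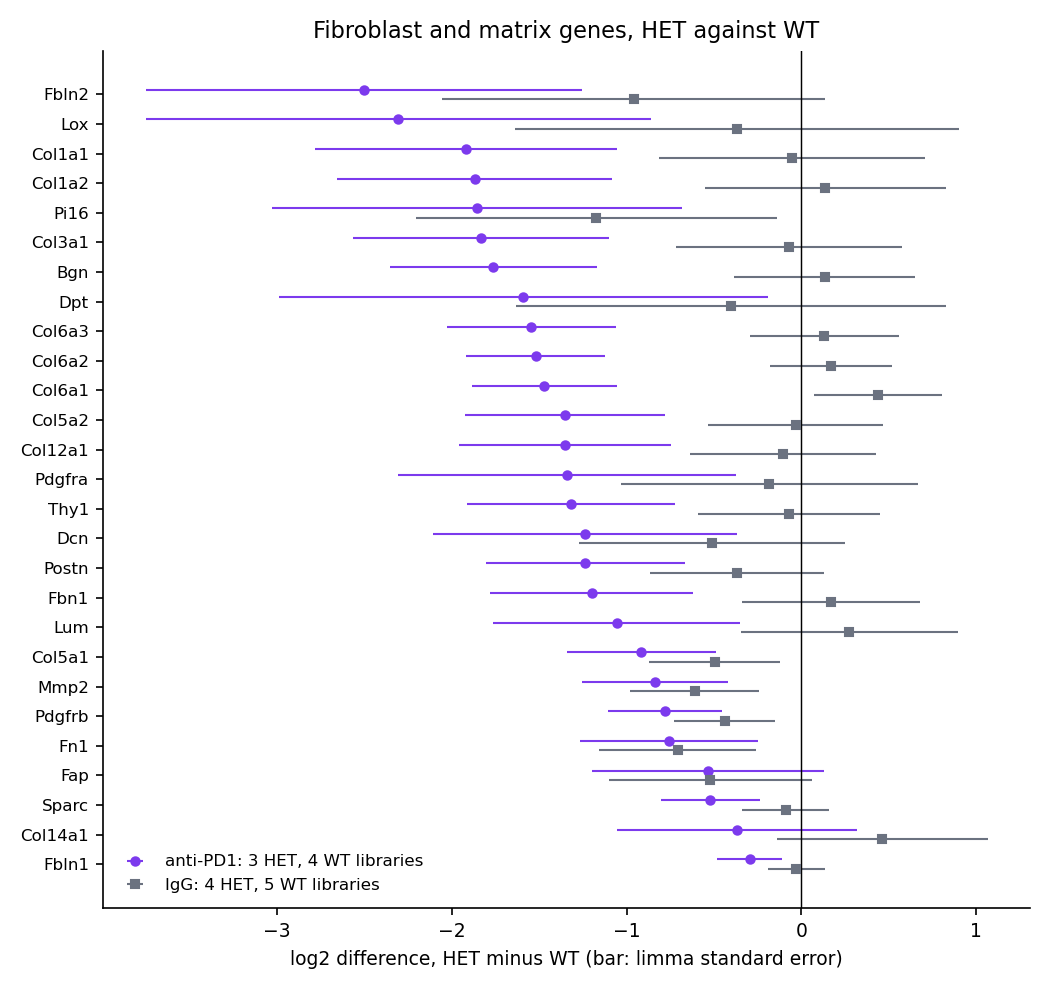
Log2 difference HET minus WT for the 27 fibroblast and matrix genes, under anti-PD1 (circles, 3 HET and 4 WT libraries) and under IgG (squares, 4 HET and 5 WT libraries), with limma standard errors. All 27 circles lie left of 0, and the squares scatter around a median of -0.09.

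Across all genes that difference of differences was called in 0 of 15002 (0.0%), and 155 (1.03%) had an unadjusted p under 0.05, 84 higher and 71 lower. By the naming rule, the genes lowest by p were Col6a1, Foxp4, Col6a2, Ssbp3 and Prss16. Foxp4, a forkhead transcription factor, had 25.1, 18.7 and 25.1 CPM in HET anti-PD1, against 33.3, 35.9, 39.4 and 27.2 CPM in WT anti-PD1, with no overlap. Its genotype difference was -0.56 ± 0.21 under anti-PD1 and 0.38 ± 0.18 under IgG. Prss16, a thymic serine protease, differed by -0.85 ± 0.39 under anti-PD1 and by 0.67 ± 0.34 under IgG, at levels near 1 CPM. The highest by p were Dusp6, Tom1l2, Fbxl4, Glyctk and Spdya. Tom1l2, a protein of vesicle traffic, had 501, 388 and 525 CPM in HET anti-PD1, against 275, 413, 375 and 383 CPM in WT anti-PD1. Its genotype difference was 0.39 ± 0.17 under anti-PD1 and -0.30 ± 0.15 under IgG. Spdya, an activator of cyclin-dependent kinases, differed by 0.81 ± 0.38 under anti-PD1 and by -0.60 ± 0.34 under IgG.

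Chemokines guide immune cells into a tissue. Of 23 genes tested, 22 were lower in HET, with a median of -0.98, and 3 had an unadjusted p under 0.05, where 1.21% of all genes were this far lower and 45.9% were lower at all. Ccl2, which draws monocytes, had 4.81, 1.82 and 2.67 CPM in HET, against 9.14, 5.09, 16.6 and 4.37 CPM in WT. Ccl7, a relative of it with the same receptor, had 3.36, 0.753 and 1.45 CPM in HET, against 4.91, 3.90, 8.95 and 1.996 CPM in WT. In both genes WT replicate 3 was the highest library and HET replicate 1 lay above WT replicate 4 alone. The differences were -1.39 ± 0.58 and -1.43 ± 0.69. Ccl22, which draws regulatory T cells, had 3 reads in all HET libraries together and 50 in WT, with no overlap (-2.18 ± 0.89).

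The 3 chemokines with the highest mean log2 CPM did not reach an unadjusted p of 0.05. Cxcl10, a target of IFN-γ, had 11.1, 9.35 and 9.23 CPM in HET, against 54.6, 20.03, 7.37 and 13.0 CPM in WT (-0.86 ± 0.67). Ccl6 and Ccl9, made by myeloid cells, differed by -1.64 ± 0.81 and -1.44 ± 0.78. The chemokine score was 0.63, -0.09 and 0.18 in HET, against 2.58, 1.00, 1.42 and 0.07 in WT, so WT replicate 4 lay among HET, and the median was -0.49 without WT replicate 1.

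Macrophage and monocyte genes were lower in HET in 26 of 28, with a median of -0.54, where 45.9% of all genes were lower. The 2 with an unadjusted p under 0.05, beside 1.21% of all genes this far lower, rest on few reads. Ly6c2, a marker of inflammatory monocytes, had 3 reads in HET and 83 in WT (-2.30 ± 0.85), and Chil3, a secreted lectin of myeloid cells, had 7 reads in HET and 81 in WT (-2.27 ± 1.02). In both genes the groups do not overlap, where 2.12% of all genes had every HET library below every WT library. Spp1, Apoe and Gpnmb had the highest mean log2 CPM of the list and can be made by melanoma cells too: they differed by -0.38 ± 0.67, 0.16 ± 0.28 and 0.18 ± 0.33. The score was 2.78, 2.32 and 2.58 in HET, against 4.63, 3.61, 3.12 and 1.97 in WT. The median was -0.16 when WT replicate 1 was left out. Dendritic cell genes were lower in 9 of 10 (median -0.34).

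All 10 neutrophil genes tested were lower in HET, with a median of -1.16, and 0 reached an unadjusted p of 0.05. Under IgG all 10 were lower in HET too, with a median of -0.95, and the median difference of differences was 0.0056. The score was -0.96, -0.98 and -1.29 in HET, against 1.35, -0.92, 0.42 and -0.29 in WT, so every HET library was below every WT library, by a narrow margin from WT replicate 2. Clec4d, a lectin receptor, had 1.56, 1.46 and 1.11 CPM in HET, against 5.77, 2.51, 4.90 and 1.24 CPM in WT (-1.13 ± 0.73). Csf3r, the G-CSF receptor, differed by -0.79 ± 0.83. Mmp9, a gelatinase, had 0.763, 0.886 and 0.668 CPM in HET, against 20.3, 0.679, 0.793 and 0.950 CPM in WT, so its difference of -1.19 ± 1.18 comes with 1 high WT library. Under IgG Clec4d, Csf3r and Mmp9 differed by -0.34 ± 0.64, -0.78 ± 0.73 and -2.87 ± 1.04. The neutrophil score ran from -1.58 to -0.05 in HET IgG, inside its range of -1.63 to 2.66 in WT IgG.

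Lymphocyte genes were scarce: 11 of 25 T cell genes and 5 of 21 cytotoxic and NK genes in the table passed the filter on low values. Of the 11 T cell genes, 10 were lower in HET (median -0.95), and 2 had an unadjusted p under 0.05, beside 1.21% of all genes. Cd8a, the CD8 chain of cytotoxic T cells, had 0.153, 0.0443 and 0.111 CPM in HET, against 0.948, 1.26, 0.326 and 0.143 CPM in WT, from 8 and 69 reads. WT replicates 1 and 2 were the highest, and WT replicate 4 lay among HET (-1.75 ± 0.77, exact permutation p = 0.11). Thy1, which fibroblasts also express, had 13.4, 5.14 and 8.20 CPM in HET, against 46.4, 17.2, 24.0 and 9.65 CPM in WT. Lck, the kinase of the T cell receptor, had 4.88, 4.52 and 4.86 CPM in HET, against 7.33, 5.97, 5.74 and 6.03 CPM in WT, without overlap (-0.39 ± 0.37). Tcf7, a transcription factor of early T cells, had 16.0, 24.0 and 12.5 CPM in HET, against 30.9, 15.0, 11.1 and 12.8 CPM in WT (0.08 ± 0.30). Lck and Tcf7 stood far above Cd8a in every library, and which cells express them was not tested. Cd4 did not pass the filter, with 0.267, 0.133 and 0.334 CPM in HET, against 0.560, 0.916, 0.140 and 0 CPM in WT.

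Of the 5 cytotoxic and NK genes, 4 were lower in HET (median -1.0), and all 7 B cell and plasma cell genes were lower (median -0.70), with 0 of either at an unadjusted p of 0.05. The B cell median was -0.10 without HET replicate 2, and the cytotoxic median was -0.52 without WT replicate 1. The genes that passed are those with enough reads in some libraries of the series, so these counts do not speak for the whole lists. The fit with the L number as a term sets HET against WT replicate 4 alone, not against the whole WT group. The L number as a term turned the medians of the immune lists, to 0.80 for chemokines, 0.74 for macrophages and monocytes, 0.75 for neutrophils, 0.02 for T cells, 1.23 for cytotoxic and NK genes, 0.56 for B cells and plasma cells and 0.55 for dendritic cells.

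Among checkpoint genes, 9 of 12 were lower in HET, with a median of -0.36. Pdcd1, which encodes PD-1, the target of the antibody, had 0.191, 0 and 0.0742 CPM in HET, against 0.302, 0.849, 0 and 0 CPM in WT (-0.55 ± 0.90). Cd274 had 34.1, 33.6 and 30.9 CPM in HET, against 54.3, 32.9, 37.8 and 28.5 CPM in WT (-0.18 ± 0.38). Lag3, an inhibitory receptor of T cells, had 0.572, 1.11 and 0.593 CPM in HET, against 2.50, 1.39, 2.89 and 0.618 CPM in WT, where WT replicate 4 lay among HET (-1.06 ± 0.45, unadjusted p = 0.027 in limma). Lgals9, which encodes galectin-9, and Pvr, a ligand of the receptor Tigit, differed by 0.14 ± 0.24 and -0.01 ± 0.24. Cd40, a receptor of antigen-presenting cells, had 0.458, 0.222 and 0.297 CPM in HET, against 1.55, 0.577, 0.420 and 0.333 CPM in WT (-0.80 ± 0.58). Of 20 CD40 and NF-κB genes, 13 were lower and 7 higher (median -0.04, and 0.03 without WT replicate 1). Nfkb2, a subunit of NF-κB, had 32.3, 21.5 and 30.5 CPM in HET, against 28.6, 43.4, 40.2 and 35.3 CPM in WT, where WT replicate 1 lay among HET (-0.40 ± 0.16, unadjusted p = 0.018 in limma). The checkpoint median was -0.15 without HET replicate 2 and 0.18 with the L number as a term.

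**Figure D4:**
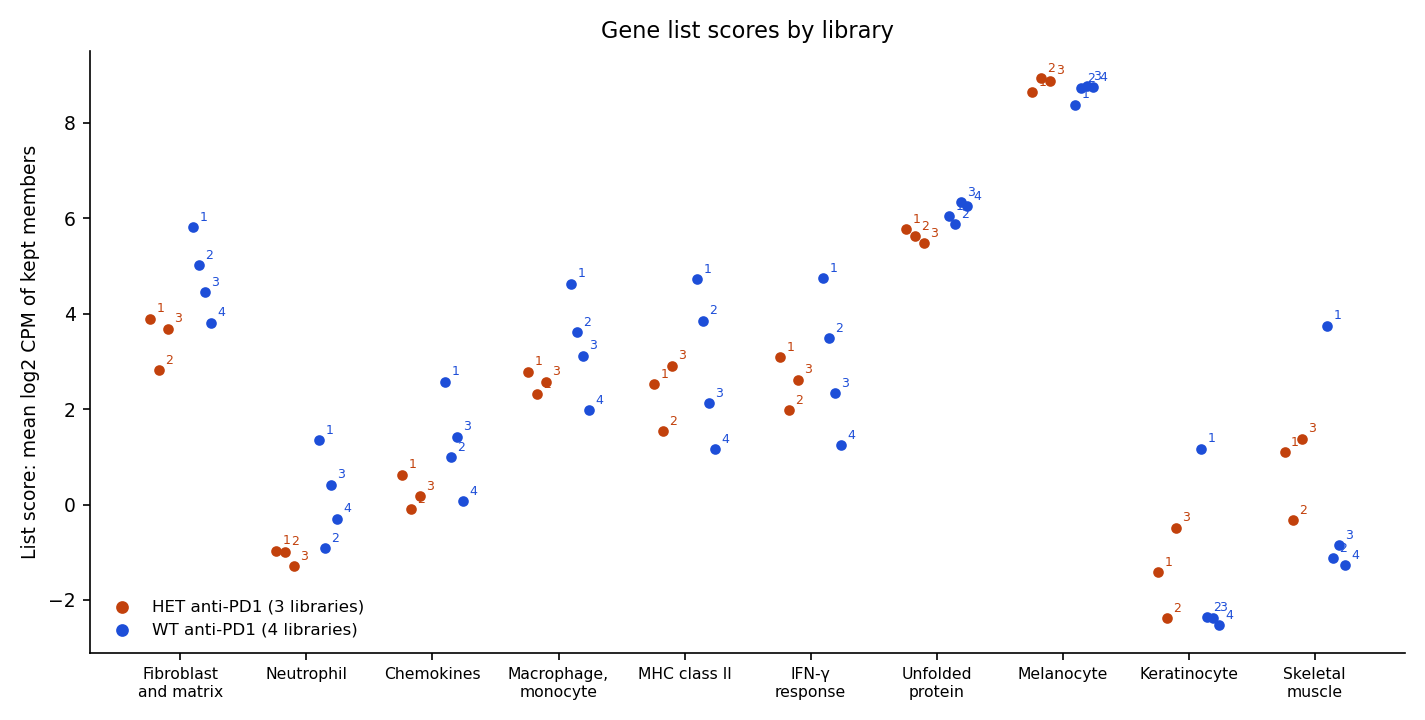
Scores (mean log2 CPM of the members tested) of 10 gene lists, 1 numbered point a library, with the 3 HET libraries left of the 4 WT libraries. Neutrophil and unfolded protein scores of HET lie under all WT scores, while WT replicate 1 is high in the muscle (3.75) and keratinocyte (1.17) lists and WT replicate 4 is the lowest WT library in 5 of the 6 matrix, immune and IFN-γ lists at the left.

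Genes of the unfolded protein and stress response, which act when the endoplasmic reticulum is loaded beyond its folding capacity, were lower in HET in 20 of 20, with a median of -0.28. Of all genes, 45.9% were lower. The score was 5.77, 5.62 and 5.48 in HET, against 6.04, 5.87, 6.34 and 6.25 in WT, so every HET library was below every WT library. Herpud1, which helps to degrade misfolded proteins, had 74.0, 63.3 and 68.6 CPM in HET, against 93.9, 113, 87.6 and 93.6 CPM in WT. The groups do not overlap, and the difference was -0.49 ± 0.18 (unadjusted p = 0.011 in limma), the single member under 0.05. Of all genes, 1.21% were this far lower and 2.12% had every HET library below every WT library. The members with the highest mean log2 CPM were the chaperones Hspa5 and Hsp90b1 and the transcription factor Atf4, which differed by -0.17 ± 0.22, -0.08 ± 0.21 and -0.26 ± 0.29. Without WT replicate 1 the median was -0.34, so this list, unlike the IFN-γ response list, did not come nearer to 0 without that library. With the L number as a term it was 0.16.

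Of 23 melanocyte genes, which mark the melanoma cells, 17 were higher in HET and 6 lower, with a median of 0.15. Tyr, the first enzyme of melanin synthesis, had 999.9, 1494 and 1261 CPM in HET, against 665, 907, 714 and 1005 CPM in WT (0.61 ± 0.29, unadjusted p = 0.048 in limma). Dct and Pmel, a protein of the pigment fibril, differed by 0.29 ± 0.20 and 0.26 ± 0.29. The melanocyte score was 8.65, 8.93 and 8.88 in HET, against 8.38, 8.72, 8.76 and 8.74 in WT, and WT replicate 1 was the lowest of the 7. Proliferation genes divided into 14 lower and 18 higher in HET (median 0.03, and -0.13 without HET replicate 1). Of 28 hypoxia and glycolysis genes, 22 were higher (median 0.20).

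Respiratory genes of the nucleus were higher in HET in 21 of 23, with a median of 0.18. Under IgG the median was 0.18 too, and the median difference of differences was 0.0036. Ndufs1, a subunit of complex I, had 190, 231 and 219 CPM in HET, against 198, 171, 116 and 192 CPM in WT (0.36 ± 0.16, unadjusted p = 0.031 in limma). WT replicate 3 was the lowest library, and WT replicates 1 and 4 lay among HET. The ATP synthase subunits Atp5b and Atp5a1 differed by 0.18 ± 0.19 and 0.26 ± 0.22, and Cox4i1, of complex IV, by 0.12 ± 0.30. The 15 genes of the mitochondrial genome were lower in HET in 12 (median -0.25), and their median was 0.10 without WT replicate 3. Members of it with an unadjusted p under 0.05 were mt-Atp6, a subunit of ATP synthase, and mt-Nd3, of complex I, where 1.21% of all genes were this far lower. Among the libraries, mt-Atp6 had 60.4, 74.4 and 70.8 CPM in HET, against 74.7, 88.4, 138 and 94.1 CPM in WT (-0.49 ± 0.22), and mt-Nd3 had 1.53, 2.17 and 1.63 CPM in HET, against 2.50, 4.17, 3.59 and 3.14 CPM in WT (-0.88 ± 0.37). The groups do not overlap in either gene, though they nearly meet in mt-Atp6. Such a separation with HET below was seen in 2.12% of all genes. The L number as a term turned the medians to -0.36 for melanocyte genes, -0.55 for hypoxia and glycolysis genes and -0.26 for the nuclear respiratory genes, and moved that of the mitochondrial genome to -1.33.

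Among single genes, Dusp6 had the smallest unadjusted p of all (0.00071 in limma). It encodes a phosphatase that inactivates ERK and is itself a target of that pathway. It had 112, 185 and 130 CPM in HET, against 111, 88.5, 69.5 and 92.8 CPM in WT. The groups do not overlap, but HET replicate 1 and WT replicate 1 nearly meet. The difference was 0.64 ± 0.17, a fitted fold of 1.56. Under IgG it averaged 128 ± 7.58 CPM in HET and 135 ± 11.3 CPM in WT, so the WT anti-PD1 mean of 90.5 ± 17.1 CPM was the lowest of the 4 groups. Its difference of differences was 0.72 ± 0.22 (unadjusted p = 0.0033 in limma).

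The other genes that ranked high by p with all HET libraries above all WT libraries were Gm12372, Pla2g3, Glyctk, BC064078, Eda, Klf1, Fbxl4, Mfap3l and Terf2ip. Pla2g3, a secreted phospholipase, had 4.16, 6.51 and 5.41 CPM in HET, against 1.68, 2.61, 2.005 and 2.99 CPM in WT (1.19 ± 0.36). Glyctk, glycerate kinase, had 5.38, 5.49 and 6.45 CPM in HET, against 3.58, 3.87, 4.24 and 3.52 CPM in WT (0.59 ± 0.18). Eda, the ligand ectodysplasin, had 1.87, 2.84 and 3.75 CPM in HET, against 1.77, 1.29, 1.03 and 0.903 CPM in WT (1.12 ± 0.38). Gm12372 and BC064078 are pseudogenes in the annotation, with differences of 1.00 ± 0.30 and 0.96 ± 0.31, so their reads may be shared with other genes. Klf1, a transcription factor of red blood cell precursors, was at or under 1.00 CPM in every library (0.89 ± 0.30). Fbxl4, a mitochondrial F-box protein, Mfap3l and Terf2ip, a telomere protein, differed by 0.49 ± 0.17, 0.89 ± 0.32 and 0.33 ± 0.12.

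Beside Col6a2, the genes that ranked high by p with all HET libraries below all WT libraries were RP23-20F10.1, Ssbp3, Dnm3os, Pxk, Arhgef19, Acap1, Ppp1r12c, RP23-169H13.6 and Rps6-ps4. Ssbp3, a binder of single-stranded DNA and partner of LIM-domain factors, had 24.4, 18.1 and 23.8 CPM in HET, against 28.8, 32.1, 33.0 and 24.8 CPM in WT (-0.43 ± 0.14). Ppp1r12c, a regulatory subunit of a myosin phosphatase, had 84.2, 77.9 and 81.2 CPM in HET, against 125, 88.2, 152 and 96.0 CPM in WT (-0.48 ± 0.17). Pxk, a PX-domain kinase-like protein, had 8.05, 4.96 and 7.27 CPM in HET, against 10.6, 11.7, 10.8 and 8.51 CPM in WT (-0.63 ± 0.22). Dnm3os, a non-coding RNA antisense to Dnm3, had 0.229, 0 and 0.223 CPM in HET, against 1.25, 0.543, 0.699 and 0.428 CPM in WT (-1.95 ± 0.66), and the use of strand in counting is not given in the sources used here. Arhgef19, a guanine nucleotide exchange factor, and Acap1, a GTPase-activating protein, differed by -1.10 ± 0.38 and -1.82 ± 0.63 at levels under 2 CPM. RP23-20F10.1, RP23-169H13.6 and the pseudogene Rps6-ps4 differed by -1.38 ± 0.46, -1.25 ± 0.44 and -1.01 ± 0.36. Under IgG the differences were -1.01 ± 0.41 for RP23-20F10.1, -1.55 ± 0.55 for Acap1, -0.88 ± 0.31 for Rps6-ps4 and -0.64 ± 0.39 for RP23-169H13.6. They were -0.38 for Dnm3os, -0.11 for Ppp1r12c, -0.07 for Pxk, -0.05 for Arhgef19 and 0.18 for Ssbp3.

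Lists of other tissues that a tumor sample can hold stood in both directions. Adipocyte genes were lower in HET in 11 of 13 (median -0.92), red blood cell genes in 8 of 11 (median -1.05), mast cell genes in 6 of 7 (median -0.66) and Schwann cell genes in 4 of 6 (median -0.13). Skeletal muscle genes were higher in 15 of 21 (median 0.53), and keratinocyte genes divided into 10 lower, 11 higher and 1 without a difference (median 0.04). Immediate early genes, which respond to handling as well as to signals, were lower in 13 of 20 (median -0.15). None of these 7 lists had a member at an unadjusted p under 0.05. Without WT replicate 1 the muscle median was 1.93 and the keratinocyte median 1.12, and the immediate early median turned to 0.25. The keratinocyte median turned to -0.29 without WT replicate 4, and the red blood cell median was then -0.07. Under IgG the red blood cell median was -0.78 and the muscle median 0.39.

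**Figure D5:**
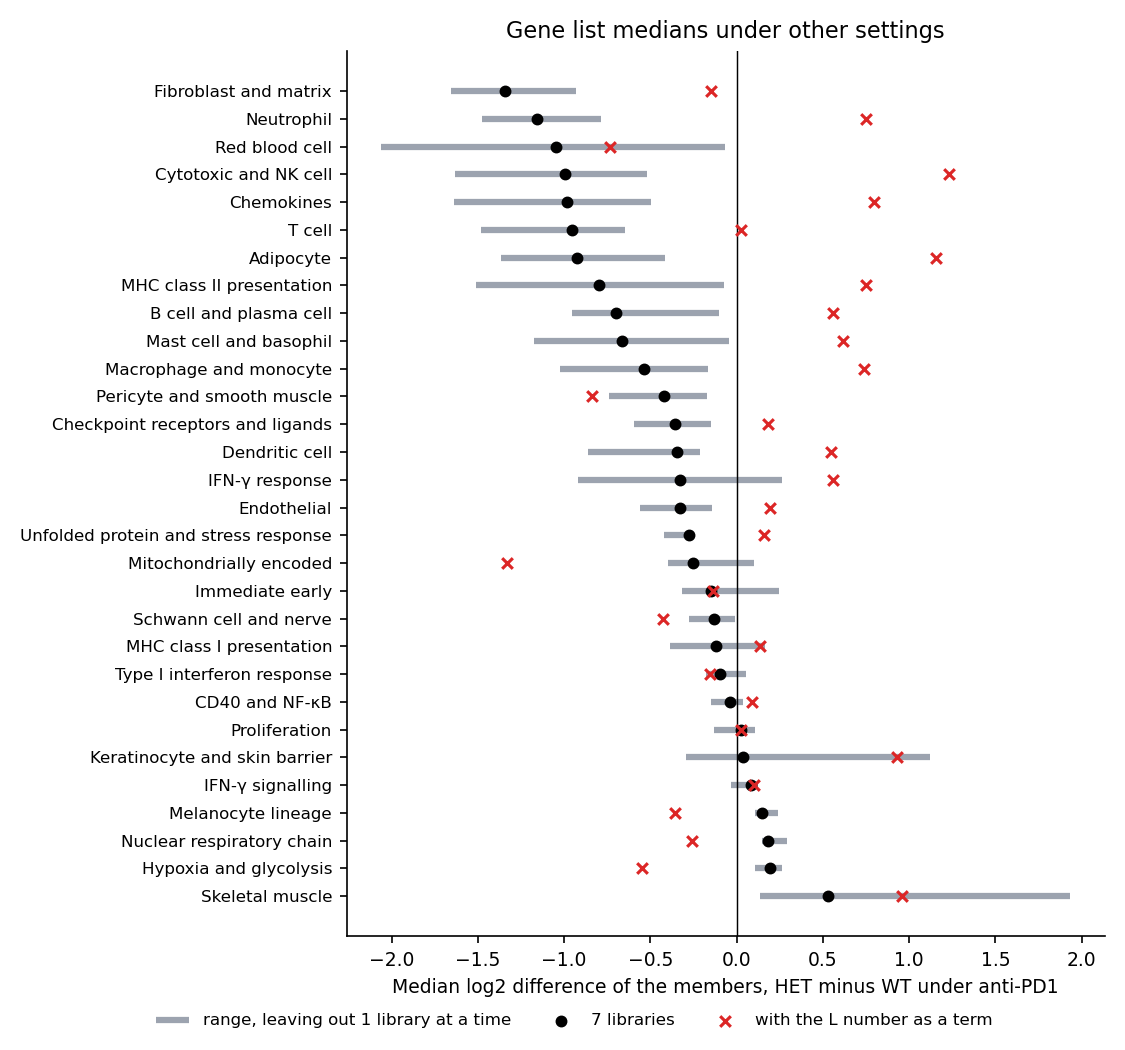
Median log2 difference, HET minus WT under anti-PD1, of the members of 30 gene lists (black points), with the range over fits that leave out 1 of the 7 libraries (grey bars) and the value with the L number as a term (red crosses). The matrix list is lowest at -1.34 and its bar runs from -1.65 to -0.93, while most crosses of the immune lists lie right of 0. The crosses set HET against WT replicate 4 alone, as the other WT libraries cancel out of that fit.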

How the data were processed

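The deposited table holds log2 CPM values (reads scaled to library size) of 18975 genes in 30 libraries, made by the authors with STAR, mm10 and edgeR, according to the submitters' processing notes. Versions, settings, stranding, the counting step and the annotation release are not given in the sources used here. Every deposited value equalled a whole number of reads plus a prior of 2 reads scaled to library size (within 0.01 reads, for 100% of values), so reads and CPM were recovered from it. No 2 libraries within a group held the same counts.

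Genes with log2 CPM above 0 in at least 3 of the 30 libraries were tested (15002). A model of the means of all 8 groups was fitted to the 30 libraries with limma 3.58.1 (moderated test with an intensity trend) in R 4.3.3. Differences are HET minus WT on the log2 scale of the deposited values, which understates those of genes with few reads. P-values were adjusted by Benjamini-Hochberg over the genes tested, and a gene was called at an adjusted p under 0.05. Single genes were also compared by a two-sided exact permutation test (scipy). The fit was checked on simulated data.

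The members and gene lists were chosen with earlier results of these data known. Genes were named by a rule: the core genes, the 10 genes in each direction with the smallest p among those whose groups do not overlap, the 5 in each direction for the difference of differences, and, for each list described in detail, its 3 members with the highest mean and those at an unadjusted p under 0.05. One gene was taken out of the core genes and lists after the analysis and is not reported here. A list is described by counts and by its median beside that of all genes. Of 18975 identifiers, 18837 were matched to GENCODE vM21, which gave the coordinates (1-based). Alternatives were other filters, prior counts of 0.5 and 5, voom on recovered reads, quantile and median-of-ratios scaling, library weights, the L number or tissue scores as terms, a replicate block and leaving out each library.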

Additional observations from a re-analysis of the deposited data

Results flagged for a closer look

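Of 66 measures compared among the 4 WT anti-PD1 libraries, 3 had 1 library far from the others by Dixon's criterion at 4 samples, and chance alone puts about 1 in 20 such groups past it. The library was WT replicate 1 each time. Its skeletal muscle score was 3.75 (log2), its keratinocyte score 1.17, and its melanocyte score 8.38, the lowest of the 4. The 3 HET libraries were not examined this way, as a group of 3 is too small. The part of that library in each result is given in the report by the values without it.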

How the results depend on the processing

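No gene was called by limma for the genotype difference under anti-PD1, or for its difference from that under IgG, under any of the 20 alternatives, voom on recovered reads included. Numbers of genes at an unadjusted p under 0.05 are given in 1 order: lower and higher in HET under anti-PD1, then lower and higher for the difference of differences, which were 181, 140, 71 and 84. With no filter on low values they were 290, 193, 146 and 126, and with a stricter filter (log2 above 2) 94, 113, 48 and 63. A fit to the compared groups alone gave 258, 242, 53 and 54. Library weights gave 505, 850, 536 and 866, adding the L number gave 24, 27, 136 and 137, and adding the tissue scores of keratinocytes and muscle 418, 343, 222 and 270. The replicate numbers shared by the groups were not taken to pair the samples. Same-numbered libraries deviated together at correlations of -0.08, -0.23 and 0.07, and differently numbered ones at -0.21 to 0.25. So few libraries cannot show or exclude a pairing. With a replicate block the numbers of genes were 101, 82, 36 and 32. Leaving out 1 library at a time, they ran over 39 to 397, 55 to 314, 40 to 193 and 62 to 190. Among these settings, that without HET IgG replicate 2 was chosen after seeing the data, and it gave 281, 224, 193 and 190. Of the 30 libraries, HET IgG replicate 2 had the lowest scaling factor on its library size (0.767) and the most genes without a read (1554). It is 1 of the 4 HET IgG libraries behind the values under IgG. Of the 27 matrix genes, 14 were lower at an unadjusted p under 0.05, against 6 with library weights, 0 with the L number, 7 with the replicate block and 3 to 16 leaving out 1 library.

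The L number turned more values than any other alternative. By its construction, WT replicates 1 to 3 cancel out of the difference in that fit. The difference sets the HET libraries against WT replicate 4 alone, with a step from L6 to L7 that only HET IgG replicate 1 ties. The log2 difference was then 0.24 for Ifngr1, 1.68 for Pdcd1, 1.31 for Cxcl9, 1.55 for Cxcl10, 0.81 for Ciita, 1.58 for Cd74, 0.67 for Rps6-ps4, -0.068 for Terf2ip, -0.26 for Irf9, -0.15 for Ptpn11, 0.24 for Lgmn, 0.75 for Ctss, -0.29 for Lgals9, 0.014 for Lag3, 0.73 for Ccl6, 0.83 for Ccl9, 0.52 for Ccl7, 0.88 for Ccl2, -0.94 for Gpnmb, -0.65 for Apoe, 0.68 for Clec4d, 0.93 for Csf3r, 1.26 for Mmp9, 0.40 for Col1a1, 0.036 for Col5a1, 0.076 for Postn, 0.46 for Col12a1, 0.046 for Col6a3, -0.39 for Dct, -0.98 for Pmel, -0.30 for Tyr, 0.33 for Hspa5, 0.19 for Hsp90b1, 0.38 for Atf4, 0.025 for Herpud1, -0.24 for Atp5b, -0.21 for Atp5a1, -0.48 for Cox4i1 and -0.027 for Ndufs1. With library weights it was 0.020 for Ifngr1, 0.25 for Cxcl9, 0.17 for Cd74, 0.29 for Irgm1, -0.032 for Tcf7 and 0.061 for Pvr. It was -0.038 for H2-K1, -0.0061 for Irf9 and 0.0077 for Pvr with the tissue scores, -0.037 for H2-K1 and -0.038 for Irf9 with quantile normalization, -0.0099 for Irf9 with median-of-ratios scaling, and -0.027 for Irf9 and 0.0019 for Pvr with the replicate block. Leaving out 1 library, it ran for Ifngr1 from -0.17 to 0.10, Cd274 from -0.31 to 0.00041, Pdcd1 from -1.03 to 0.15, Cxcl9 from -2.16 to 0.31, Gbp2 from -1.48 to 0.28, H2-K1 from -0.15 to 0.17, Tapbp from -0.55 to 0.054, Irgm1 from -0.35 to 0.42, Irf9 from -0.13 to 0.18, Lgmn from -0.29 to 0.15, Ctss from -1.22 to 0.012, Tcf7 from -0.18 to 0.39, Pvr from -0.11 to 0.13, Apoe from -0.015 to 0.38 and for Spp1 from -1.15 to 0.33. The cause of these turns was not tested. The other 1742 of 1822 values of named genes kept their sign. Of the 30 list medians, 19 had another sign with the L number, 8 with library weights and 9 when 1 or another library was left out, and 3 (fibroblast and matrix, pericyte and smooth muscle, red blood cell) had the same sign under each of the 20 alternatives. Depth limits Ifng, Pdcd1, Cd8a, Cd4, Cd40, RP23-20F10.1, Dnm3os, Acap1, Gm12372, Klf1, Prss16, Spdya, Ccl22, Ly6c2 and Chil3, which rest on fewer than 100 reads in each group.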
